A study of Rattus norvegicus with 6 samples.

Results

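A set of 7 miRNAs that are commonly read as signs of glial cells were followed through small RNA libraries of rat cortical neurons. They were chosen by name as rno-miR-21-5p, rno-miR-21-3p, rno-miR-146a-5p, rno-miR-219a-5p, rno-miR-219a-2-3p, rno-miR-338-3p and rno-miR-338-5p (the species prefix is left out where they recur), and all 7 were found among the 649 mature miRNAs counted. The cultures came from cortex of Sprague-Dawley rat embryos at embryonic day 18 and were used at 7 days in vitro (DIV). The 3 BDNF samples received brain-derived neurotrophic factor at 100 ng/ml for 20 min, and the 3 control samples received the vehicle, 0.1% BSA, for the same time. Cortical cultures of the study were given fluorodeoxyuridine to stop the division of non-neuronal cells, and how many glia remained was not measured. The samples carry replicate numbers 1 to 3 in both conditions.

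A mature miRNA is cut from a hairpin precursor, whose 5′ and 3′ arms can each give a product (5p and 3p), and bases 2 to 8 of the product, the seed, lead it to its target mRNAs. MiR-219a and miR-338 are known for promoting the maturation of oligodendrocytes, the myelin-forming glia. MiR-21 is known to rise in reactive astrocytes and dividing cells, and miR-146a is induced by NF-kB signalling in astrocytes and microglia. The miR-338 hairpin lies within Aatk, a gene that neurons also use. Only miRNAs were measured, so the cells that made them cannot be told from these libraries.

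The sequences are shown because they decide which counts can be read as 1 miRNA. They are RefSeq sequences on the rat build GRCr8, which held all 7 miRNAs, written 5′ to 3′ with the seed in capitals. The products of the Mir21 hairpin lie on the minus strand of chromosome 10, at chr10:71902653-71902674 for the 5p arm and chr10:71902615-71902636 for the 3p arm.
miR-21-5p: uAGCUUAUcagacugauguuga
miR-21-3p: cAACAGCAgucgaugggcuguc

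MiR-338 also lies on the minus strand of chromosome 10, within Aatk, at chr10:105796381-105796402 for the 5p arm and chr10:105796345-105796367 for the 3p arm. Both arms face a product of miR-3065 on the plus strand, with overlaps of 19 bases (miR-338-5p and miR-3065-3p) and 20 bases (miR-338-3p and miR-3065-5p).
miR-338-5p: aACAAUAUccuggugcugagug
miR-338-3p: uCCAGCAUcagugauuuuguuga

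MiR-219a-5p has the same sequence in 2 hairpins, Mir219-2 on chromosome 3 and Mir219a1 on chromosome 20, so its count cannot be split between them. The 3p arms differ and do tell the hairpins apart. The Mir219-2 products lie on the minus strand within the span of Cercam, at chr3:33516561-33516581 for the 5p arm and chr3:33516517-33516538 for miR-219a-2-3p. The 3p arm of Mir219a1 lies on the plus strand at chr20:4831641-4831662.
miR-219a-5p: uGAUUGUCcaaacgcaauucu
miR-219a-2-3p: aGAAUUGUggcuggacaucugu
miR-219a-1-3p: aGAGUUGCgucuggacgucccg

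MiR-146a-5p, at chr10:28350053-28350074 on the minus strand within the span of a long non-coding RNA gene, shares its seed with miR-146b-5p, at chr1:255144874-255144897 on the plus strand. Over the length of miR-146a-5p the pair differ by the substitutions G18A and U21C, counted from the 5′ end of miR-146a-5p. The authors' aligner accepts a mismatch and trimmed or extended ends, and reads assigned to the wrong member of this pair were not tested for.
miR-146a-5p: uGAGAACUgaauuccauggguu
miR-146b-5p: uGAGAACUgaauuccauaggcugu
The other 6 miRNAs shared their seed with none of the 583 mature miRNAs of the files that were matched to a RefSeq sequence, other than themselves.

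Levels are given in RPM, the usual unit in which the reads of a miRNA are divided by the sum of the counts of its library and brought to 1 common total, for libraries of 10374120 to 12533029 counts. The 7 miRNAs spanned from 7480 RPM to 0.0964 RPM, and miR-21-5p took 98.3% to 98.6% of their summed reads. Rno-miR-21-5p had 7277, 6615 and 5571 RPM in control replicates 1 to 3 and 7480, 7033 and 5602 RPM in BDNF replicates 1 to 3. It ranked 24 of the 649 miRNAs by mean RPM, and the 2 conditions overlapped. Among neuronal miRNAs, miR-128-3p ranked 2 and miR-124-3p ranked 27. In control replicate 3, miR-124-3p lay above miR-21-5p, at 5612 RPM. For rno-miR-338-5p the rank was 231, with 53.6, 50.8 and 40.2 RPM in control and 53.9, 52.2 and 44.2 RPM in BDNF samples. For rno-miR-219a-5p it was 283, with 25.5, 23.3 and 23.6 RPM in control and 24.1, 25.5 and 26.1 RPM in BDNF samples. MiR-21-5p, miR-338-5p and miR-219a-5p did not overlap in level in any library.

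For rno-miR-146a-5p it was 316, with 19.0, 9.81 and 16.3 RPM in control and 14.9, 11.3 and 14.5 RPM in BDNF samples. Its range lay below that of miR-219a-5p and overlapped that of miR-338-3p, which had 9.48, 10.6 and 6.07 RPM in control and 10.01, 8.33 and 9.41 RPM in BDNF samples. MiR-338-3p stayed under a mean of 10 RPM in both conditions, the reading used here of the 10 RPM filter in the methods, with 63 to 133 reads per library. MiR-219a-2-3p was rarer, with 9 to 24 reads and 0.862 to 2.02 RPM. MiR-21-3p was the rarest, with 5, 6 and 1 reads in control and 6, 6 and 2 reads in BDNF replicates 1 to 3. Its counts in both replicate 3 libraries were at or under the floor of 3 reads. Thus 4 of the 7 miRNAs passed the 10 RPM filter and were among the 336 tested, and the remaining 3 were fitted only without the filter. RPM compare miRNAs of nearly equal length (21 to 23 bases here), but adapters ligate to some sequences more readily than to others, and this was not tested.

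**Figure D1:**
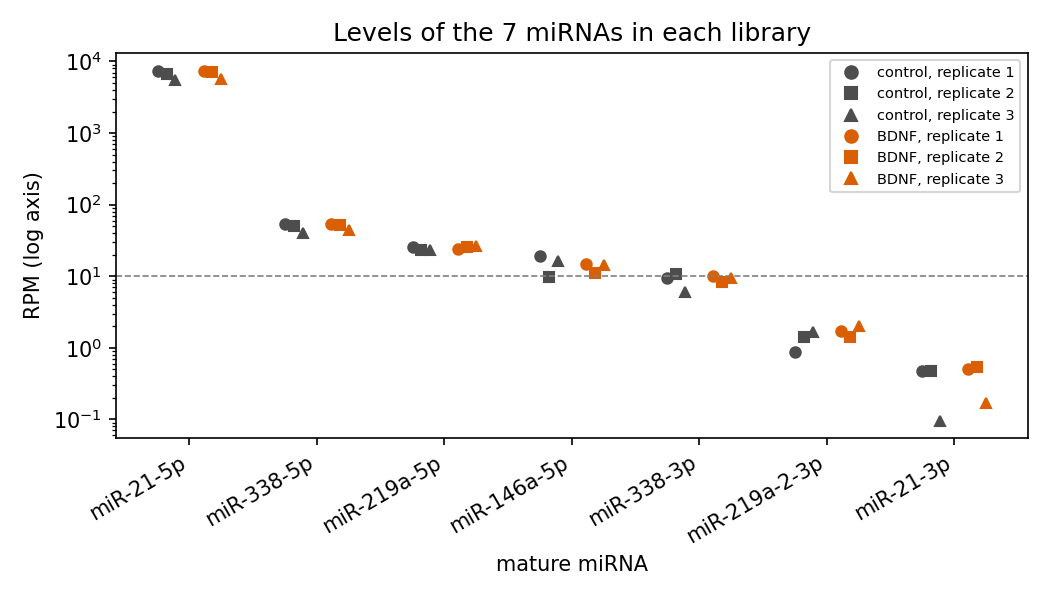
RPM of the 7 miRNAs on a log axis, with 1 point per library (grey, control; orange, BDNF; the marker shape gives the replicate number), and the dashed line at 10 RPM. MiR-21-5p lay between 5571 and 7480 RPM, while miR-219a-2-3p and miR-21-3p lay below 2.1 RPM in every library.

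Lists of miRNAs linked to other cells place these levels in the culture. A list of 12 neuron-enriched miRNAs, led by miR-128-3p, miR-124-3p and miR-129-5p, summed to 90772 to 101111 RPM in control and 87536 to 110443 RPM in BDNF samples. Most of this was miR-128-3p, which had 75697 to 88885 RPM per library. The 7 glia-linked miRNAs summed to 5659 to 7386 RPM in control and 5698 to 7586 RPM in BDNF samples, nearly all of it miR-21-5p. A list of 7 vascular and mesenchymal miRNAs, led by miR-143-3p and miR-126a-3p, summed to 158 to 225 RPM in control and 151 to 223 RPM in BDNF samples. Of 7 miRNAs linked to blood and immune cells, 6 were in the files and none passed the filter. Their sum was 9.34 to 10.3 RPM in control and 6.64 to 12.1 RPM in BDNF samples. MiR-142-3p, a defining miRNA of the haematopoietic lineage, which includes microglia, had 1 to 13 reads per library. Its opposite arm, miR-142-5p, had 11 to 24 reads.

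**Figure D2:**
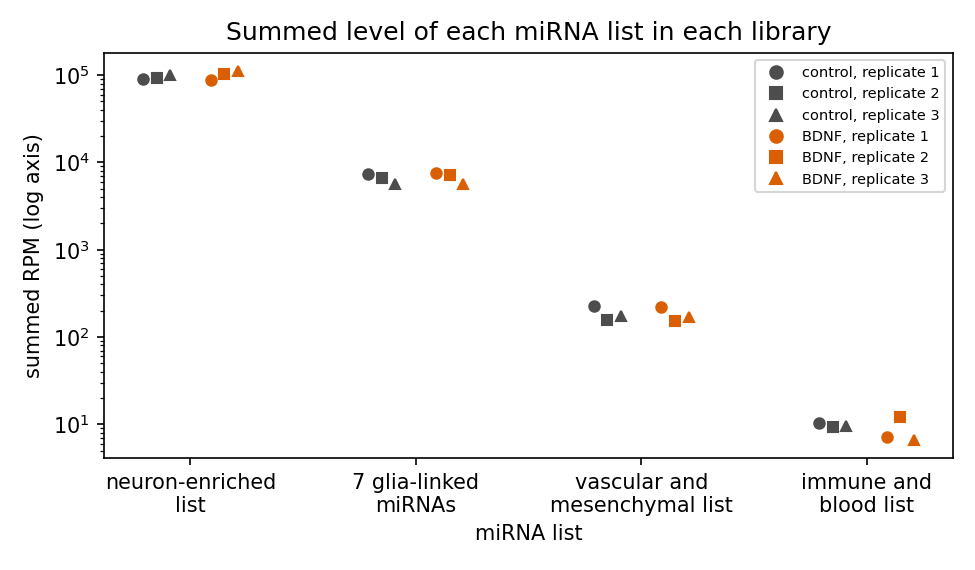
Summed RPM of each list on a log axis, with 1 point per library (grey, control; orange, BDNF; the marker shape gives the replicate number). The neuron-enriched list lay near or above 87536 RPM in every library and the blood and immune list at or below 12.1 RPM, with the glia-linked miRNAs between them.

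Which arm of the hairpin was kept differed from miRNA to miRNA. For miR-338 the 5p arm prevailed, although the 3p arm is the one usually studied in oligodendrocytes. MiR-338-5p took 85.0%, 82.7% and 86.9% of the reads of both arms in control replicates 1 to 3 and 84.3%, 86.2% and 82.4% in BDNF replicates 1 to 3. The exact (Clopper-Pearson) 95% intervals, which cover counting error only, overlapped between all libraries. The mean share was 84.9% ± 2.08 (SD, n = 3) for control samples and 84.3% ± 1.90 (SD, n = 3) after BDNF. An exact two-sided permutation test of this difference gave p = 0.7 (n = 3 per group), and 3 against 3 samples cannot give less than 0.1.

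For miR-21 nearly every read came from the 5p arm. The 3p share was between 0.00173% and 0.00756% of the reads of both arms, on 1 to 6 reads per library. In control replicate 3, where it was lowest, the exact 95% interval ran from 4.4e-05% to 0.00964%. Among 182 precursors with both arms counted in every library, only 2 had a larger mean log2 5p/3p ratio than miR-21, whose mean was 14.3. This compares with 2.47 for miR-338, which 59 precursors exceeded.

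For miR-219a most reads of the 3p arms came from Mir219a1. MiR-219a-1-3p had 264, 306 and 281 reads in control and 326, 280 and 299 reads in BDNF replicates 1 to 3, against 9, 18 and 17 and then 20, 16 and 24 reads of miR-219a-2-3p. The Mir219a1 share of the 3p reads was between 92.6% and 96.7% in the 6 libraries. The read total of miR-219a-1-3p over all libraries was 1756, beside 1683 reads of miR-219a-5p. Both hairpins can give miR-219a-5p, and the 3p shares do not tell how its reads divide between them. MiR-219b, which is cut from the other strand of the Mir219-2 locus and overlaps miR-219a-2-3p by 20 bases, was about as rare as that arm, with 14 to 22 reads per library. On the other strand of miR-338, miR-3065-5p had 1 to 8 reads and miR-3065-3p 0 or 1 read per library. A count of 0 allows up to 3 reads, or 0.239 to 0.289 RPM in these libraries.

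MiR-146a-5p was the minor member of its seed pair. MiR-146b-5p had 7469 to 8975 reads per library, and miR-146a-5p made up 2.44%, 1.35% and 2.21% of the reads of both in control replicates 1 to 3. The share was 2.20%, 1.60% and 2.04% in BDNF replicates 1 to 3, lowest in replicate 2 of both conditions. The opposite arm, miR-146a-3p, had 1 read at most in any library. The BDNF and control samples overlapped in each of the 4 shares (miR-21-3p, miR-338-5p, miR-219a-1-3p and miR-146a-5p), and the smallest exact permutation p was 0.4 (n = 3 per group, adjusted p = 0.9 for all 4).

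**Figure D3:**
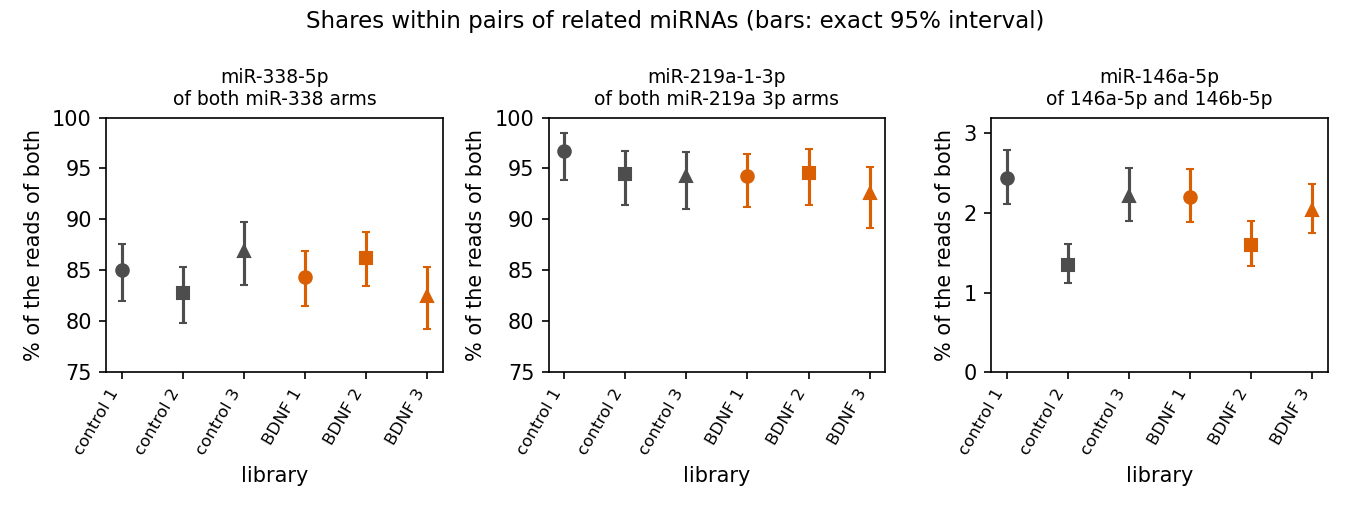
Percent of reads taken by miR-338-5p among both miR-338 arms, by miR-219a-1-3p among both miR-219a 3p arms and by miR-146a-5p among miR-146a-5p and miR-146b-5p, for each library with its exact 95% interval (grey, control; orange, BDNF; the first 2 axes start at 75%). The miR-338-5p share lay between 82.4% and 86.9%, and the miR-146a-5p share was lowest in replicate 2 of both conditions.

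None of the 7 miRNAs was called changed after BDNF for 20 min, 4 of them in the test with the filter and 3 in the fit without it. In edgeR's quasi-likelihood test, adjusted over all 336 miRNAs tested, 0% of the miRNAs had an adjusted p under 0.05, and 2.98% had an unadjusted p under 0.05, none of them a glia-linked miRNA. Normalized RPM are RPM divided by the TMM scaling factor. MiR-21-5p had 6472 ± 1158 normalized RPM (SD, n = 3) without and 6825 ± 1495 (SD, n = 3) with BDNF. The log2 fold change (BDNF/Ctrl) was 0.08 (standard error 0.20), with an adjusted p of 0.999 in edgeR and a 95% interval from -0.41 to 0.56. The log2 fold change was 0.08 (standard error 0.21) for miR-338-5p and 0.09 (standard error 0.12) for miR-219a-5p. It was -0.11 (standard error 0.24) for miR-146a-5p, and all of these differences were smaller than their standard errors. The median over the 4 was 0.08, beside -0.0015 over all miRNAs tested.

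The 3 miRNAs below 10 RPM were fitted with all 649 miRNAs, of which 2.31% had an unadjusted p under 0.05 in edgeR. The log2 fold change was 0.10 (standard error 0.25) for miR-338-3p, 0.19 (standard error 0.69) for miR-21-3p and 0.41 (standard error 0.31) for miR-219a-2-3p, each with an adjusted p of 0.9997 in edgeR. The last of these had 1.31 ± 0.40 RPM (SD, n = 3) without and 1.72 ± 0.30 RPM (SD, n = 3) with BDNF, and with 9 to 24 reads per library its 95% interval ran from -0.29 to 1.11.

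Control and BDNF libraries that carry 1 number departed from their group means alike, and the number was therefore also used as a block. Within each pair, normalized RPM with BDNF divided by normalized RPM without it was 1.10, 1.05 and 1.002 for miR-21-5p in replicates 1 to 3. It was 1.08, 1.01 and 1.10 for miR-338-5p and 1.01, 1.08 and 1.10 for miR-219a-5p. These 3 were thus above 1 in every pair on this scale, as were 16.1% of all miRNAs tested, and on the RPM scale miR-219a-5p was at 0.944 in replicate 1. For miR-146a-5p the ratios were 0.841, 1.13 and 0.884. With the replicate number as a block, the 95% interval of the log2 fold change narrowed to between -0.08 and 0.22 for miR-21-5p and between -0.10 and 0.27 for miR-338-5p. It ran from -0.12 to 0.29 for miR-219a-5p and from -0.37 to 0.17 for miR-146a-5p. In that fit 20.5% of the miRNAs tested had an unadjusted p under 0.05 and 0% an adjusted p under 0.05. The 4 glia-linked miRNAs had unadjusted p from 0.32 to 0.42 and adjusted p from 0.61 to 0.68 in edgeR.

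**Figure D4:**
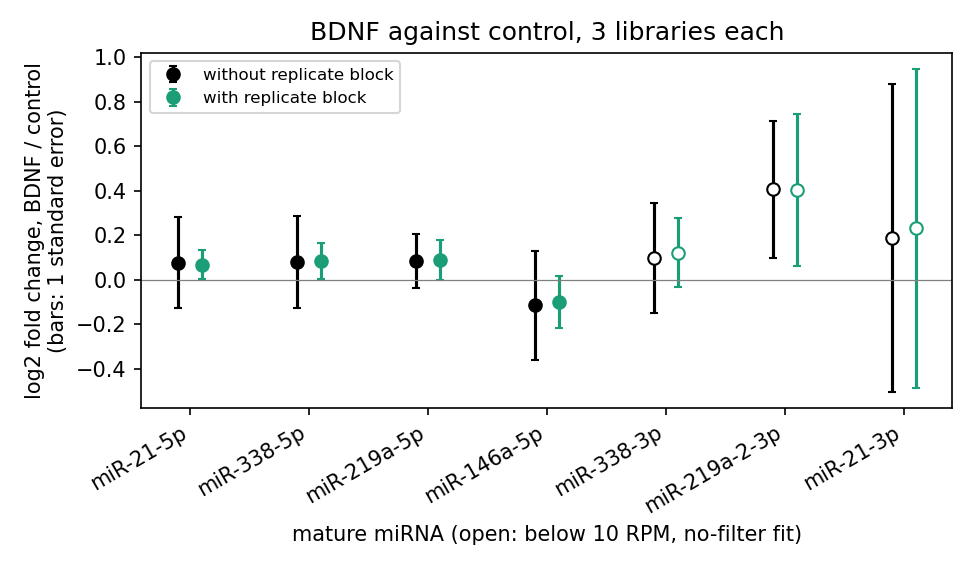
Log2 fold change of the 7 miRNAs in BDNF against control samples (3 libraries each) without (black) and with (green) the replicate number as a block, with bars of 1 standard error; open points are miRNAs below 10 RPM, from the fit without a filter. The estimates lay between -0.11 and 0.41, and the bars of the 4 tested miRNAs were shorter with the block.

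The relatives of these miRNAs likewise gave no call. Of 8 miRNAs listed for the same locus, its other strand or the same seed, 7 were in the files and 2 passed the filter. MiR-146b-5p had 716 to 759 RPM in control and 662 to 696 RPM in BDNF samples, so that the groups did not overlap, which 5.36% of the miRNAs tested also showed, but on normalized RPM they overlapped. Within pairs, its normalized RPM with BDNF divided by that without it was 0.934, 0.952 and 0.963 in replicates 1 to 3. It was thus below 1 in every pair, as were 23.8% of the miRNAs tested. Its log2 fold change was -0.08 (standard error 0.10), and that of miR-219a-1-3p was 0.05 (standard error 0.13), both with an adjusted p of 0.999 in edgeR.

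The replicate numbers, which are biological replicates per the methods, were compared in the same way. MiR-21-5p and miR-338-5p were both lowest in replicate 3, in which both libraries lay below the other 4 for each of them on the RPM scale, as for 12.5% of the miRNAs tested. For miR-21-5p and miR-338-5p both libraries of number 1 also lay above the other 4, as for 16.4% of the miRNAs tested. Both libraries of number 3 lay above the other 4 for 44.3% of the miRNAs tested, and both of number 2 for 1.49%. Numbers were compared as pairs of libraries, with condition as a term of the fit. MiR-21-5p was lower in number 3 than in number 1, with a log2 difference of -0.58 (standard error 0.08), or 0.671 of the level in number 1. MiR-338-5p was also lower in number 3, with a log2 difference from number 1 of -0.52 (standard error 0.10), or 0.695 of that level. Their log2 differences between numbers 3 and 2 were -0.46 (standard error 0.08) and -0.46 (standard error 0.10). The test over the 3 numbers gave adjusted p = 0.0022 for miR-21-5p and 0.0074 for miR-338-5p in edgeR.

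MiR-146a-5p followed another pattern, lowest in number 2 on the RPM scale in both conditions, with 123 and 127 reads. Both number 2 libraries lay below the other 4, as for 9.52% of the miRNAs tested. Its log2 difference between numbers 2 and 1 was -0.68 (standard error 0.14), or 0.624 of the level in number 1, and the test over the 3 numbers gave adjusted p = 0.016 in edgeR. Of all miRNAs tested, 7.44% were lower and 4.17% higher in number 2 than in number 1, and 13.4% were lower and 8.04% higher in number 3 than in number 2, at an adjusted p under 0.05 in edgeR. MiR-219a-5p varied least of the 4, with a coefficient of variation of RPM of 4.89% in control and 4.24% in BDNF samples, where the median of all miRNAs tested was 15.1% and 14.7%. On normalized RPM it was 8.10% and 4.68%, beside medians of 13.4% and 11.9%. Its largest log2 difference between numbers was -0.17 (standard error 0.11), with an adjusted p of 0.39 over the 3 numbers in edgeR. A smaller coefficient of variation was seen for 8.33% of the miRNAs tested in control and 4.76% in BDNF samples on RPM, and for 26.2% and 13.4% on normalized RPM.

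These 3 calls in 4 stand against 48.2% of all 336 miRNAs tested that had an adjusted p under 0.05 between numbers in edgeR (162 miRNAs), and 56% had an unadjusted p under 0.05. None of the 3 miRNAs below 10 RPM passed in the fit without the filter, where 30.4% of the 649 did. In that fit the log2 difference of miR-338-3p between numbers 3 and 1 was -0.48 (standard error 0.19), with an adjusted p of 0.089 over the 3 numbers in edgeR. Of the 336 miRNAs, the count of 162 became 96, 76, 82 and 66 without control replicate 1, control replicate 3, BDNF replicate 1 and BDNF replicate 3, and 181 and 176 without control and BDNF replicate 2. A number left with 1 library is assumed to vary like the others in these fits. The call of miR-21-5p held without each library in turn, with adjusted p up to 0.039. The adjusted p of miR-338-5p was 0.12 without control replicate 3, 0.053 without BDNF replicate 1 and 0.086 without BDNF replicate 3. That of miR-146a-5p was 0.14 without control replicate 1, 0.10 without BDNF replicate 1 and 0.053 without BDNF replicate 3, and it was 0.15 in DESeq2. Scaling by library size alone moved the median log2 difference between numbers 3 and 1 over all miRNAs from -0.01 to 0.16. It changed the split of calls between these numbers from 84 higher and 92 lower to 120 higher and 50 lower. The log2 difference of miR-21-5p was then -0.40 (adjusted p = 0.011 over the 3 numbers in edgeR) and that of miR-338-5p -0.35 (adjusted p = 0.057). That of miR-219a-5p turned from -0.17 to 0.01.

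Other lists moved between the same numbers. In number 3 against number 1, 7 of the 12 neuron-enriched miRNAs were higher and 1 was lower at an adjusted p under 0.05 in edgeR, where 25% of all miRNAs tested were higher and 27.4% lower. The higher ones included every listed product of the miR-129 hairpins, and these are not independent markers. The median log2 difference of the list was 0.37, and its members did not move alike. The 2 most abundant, miR-128-3p and miR-124-3p, had log2 differences of -0.05 (standard error 0.08) and -0.04 (standard error 0.10), and neither passed. MiR-153-3p was the lower one, at -1.03 (standard error 0.17). MiR-129-5p had the largest difference, 1.43 (standard error 0.08), with 2796 and 2616 RPM in the number 1 libraries and 7776 and 8693 RPM in the number 3 libraries. Of the 4 vascular and mesenchymal miRNAs that passed the filter, 3 were lower in number 3 than in number 1. Between numbers 3 and 2 none of the 4 passed, unlike miR-21-5p and miR-338-5p. The log2 difference between numbers 3 and 2 was 0.10 for miR-143-3p and -0.12 for miR-126a-3p. None of the blood and immune list passed the filter. Most reads of the neuron-enriched list were those of miR-128-3p. The summed RPM of the list was 90772 and 87536 in number 1, 93315 and 103174 in number 2, and 101111 and 110443 in number 3 (control, then BDNF). On normalized RPM the order was another, with 91389 and 94367 in number 1, 97819 and 106323 in number 2, and 93543 and 101819 in number 3. The part of cell makeup in the level of miR-21-5p or miR-338-5p was not tested, and in such bulk samples fewer cells of a type and less RNA per cell cannot be told apart.

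**Figure D5:**
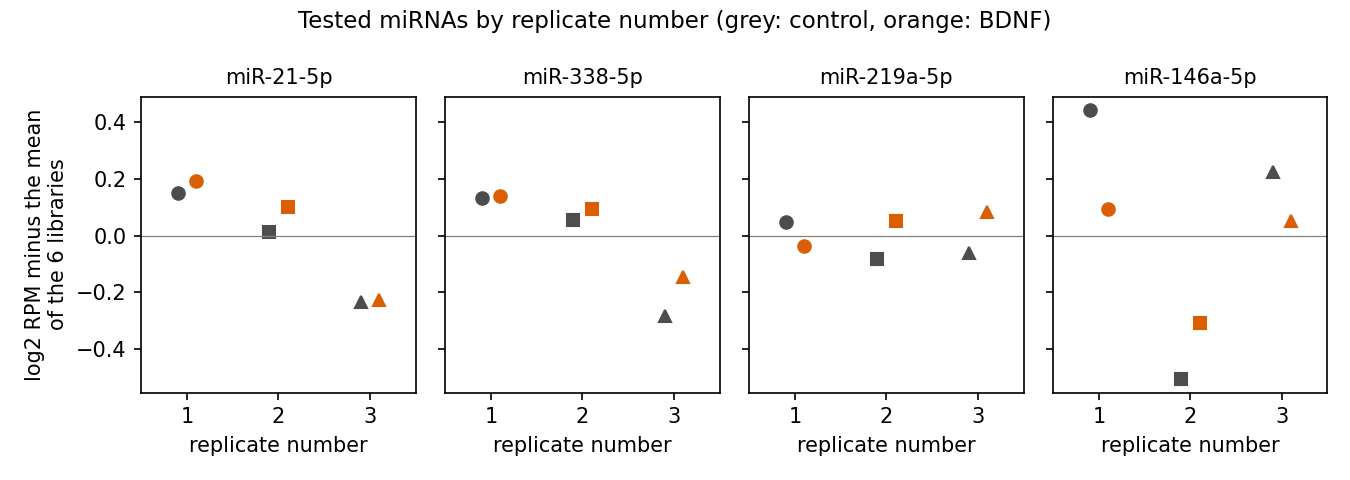
Log2 RPM of the 4 tested miRNAs minus the mean of their 6 libraries, by replicate number (grey, control; orange, BDNF). Both libraries of number 3 were lowest for miR-21-5p and miR-338-5p, both of number 2 were lowest for miR-146a-5p, and miR-219a-5p showed no such order.

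Across the 6 libraries, miR-21-5p and miR-338-5p had nearly the same profile. After each was centred on its own mean, their log2 normalized RPM differed by a root mean square of 0.047, beside 0.182 between miR-21-5p and miR-219a-5p and 0.369 between miR-21-5p and miR-146a-5p. Nearest to miR-21-5p among the other miRNAs tested were miR-26b-5p, miR-135a-5p and miR-3068-3p, at 0.050, 0.064 and 0.072. Nearest to miR-338-5p were miR-30e-3p, miR-135b-5p and miR-9a-5p, the most abundant miRNA of neural cells in these libraries, at 0.052, 0.059 and 0.063. Nearest to miR-146a-5p were miR-194-5p, miR-1298 and miR-350, at 0.115, 0.157 and 0.160. Nearest to miR-219a-5p, whose own spread was only 0.090, were miR-151-3p, miR-3068-5p and miR-125a-3p, at 0.049, 0.055 and 0.066. These distances are descriptions over 6 libraries in 3 numbered pairs.

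No response of the arm ratios to BDNF was detected either. Neither miR-21 nor miR-338 had both arms past the filter, so their log2 5p/3p ratios were fitted with limma over the 182 precursors with both arms counted in every library, of which 0% had an adjusted p under 0.05 and 3.3% an unadjusted p under 0.05. With both arms past the filter, 3.61% of 83 precursors had an unadjusted p under 0.05. The log2 ratio of miR-338 was 2.50 ± 0.23 (SD, n = 3) without and 2.44 ± 0.21 (SD, n = 3) with BDNF. It changed by -0.06 (standard error 0.22; adjusted p = 0.97 in limma). For miR-21 the change was -0.31 (standard error 0.72), with the same adjusted p in limma, on 1 to 6 reads of the 3p arm. Between replicate numbers 12.1% of these precursors had an adjusted p under 0.05 in limma, where miR-338 had 0.99 and miR-21 0.32. Thus no difference in the miR-338 arm ratio was detected between the numbers that differed in miR-338-5p.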

How the data were processed

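The 6 small RNA libraries, 3 control and 3 BDNF, were grouped, with conditions and replicate numbers from the sample titles. After adapter trimming and removal of short or poor reads, the authors aligned the rest to miRBase with Miraligner. They deposited the counts of 649 miRNAs with no normalization. Tool versions, and how reads that fit several miRNAs were assigned, are not given in the sources used here. The labels give 7 DIV, whereas a legend of the study gives an earlier day.

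The deposited counts entered edgeR 4.0.16 unchanged (TMM, column sums as library size, quasi-likelihood test, Benjamini-Hochberg adjustment) over 336 miRNAs that reached a mean of 10 RPM in either condition. Replicate numbers were tested in the same way with condition as a term. The standard error is the size of the log2 difference divided by the square root of F. Arm ratios (log2 5p/3p) were fitted with limma 3.58.1 with a variance trend. Exact permutation tests used scipy 1.17.1. DESeq2 1.42.0, other scaling, no filter, the replicate block and leaving out each library were alternatives. Blocked fits without the filter, and of all precursors with both arms counted, were added after seeing the data. The fits of BDNF, of replicate numbers and of arm ratios were also run on simulated counts, and the outcome of those runs is not given here.

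The numbers pair the samples: deviations from the group means of control and BDNF samples with the same number had correlations of 0.80, 0.48 and 0.89 across miRNAs. Libraries of a condition were further apart than sampling noise (chi-square per degree of freedom of at least 220). Named are the 7 miRNAs, their relatives by locus or seed, the leading miRNAs of each cell-type list, and for each tested miRNA the 3 others with the nearest profile. MiR-142-3p and miR-153-3p were named after their values were seen. The miRNAs and lists were chosen with earlier results of these data known. Intervals cover counting error only where given for shares.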

Additional observations from a re-analysis of the deposited data

How the results depend on the processing

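BDNF called no miRNA at an adjusted p under 0.05 in the edgeR fit, with the replicate block, in DESeq2, with library-size scaling, without the filter or without any library. At an unadjusted p under 0.05 the count moved from 10 to 69 with the replicate block and to 6 with library-size scaling, and leaving out single libraries gave 3 to 32. No glia-linked miRNA gained a call from the block. Leaving out a library turned the sign of the BDNF log2 fold change in some cases, none of them past the threshold. The ranges were -0.063 to 0.24 for miR-21-5p, -0.32 to 0.13 for miR-146a-5p, -0.076 to 0.22 for miR-338-5p, -0.26 to 0.60 for miR-21-3p and -0.14 to 0.32 for miR-338-3p. Those of the arm ratio were -0.73 to 0.36 for miR-21 and -0.18 to 0.056 for miR-338. Between replicate numbers the 162 miRNAs with an adjusted p under 0.05 became 66 to 181 without single libraries. The log2 difference of miR-219a-5p between numbers 3 and 1 turned to 0.0063 with library-size scaling, which shifts all miRNAs of a library alike. Arm ratios past an unadjusted p of 0.05 with BDNF went from 3 precursors to 10 with the block, to 6 with every precursor counted in each library and to between 1 and 8 without single libraries. Between numbers, the 14 precursors past an adjusted p of 0.05 became 22 with every such precursor and 0 to 24 without single libraries. The 27 past an unadjusted p became 44 and 13 to 32. Fewer samples were fitted without a library, and the other causes were not tested.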
